A study of Mus musculus with 33 samples.

Results

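The genes described here are 5 genes of arginine metabolism, Nos2, Slc7a2, Ass1, Odc1 and Sat1, taken from a list of names with no threshold on their values, although earlier results of these data were known when the list was made. All 5 were found among the 32285 genes of each count matrix. The study used SAMENT, a niche labelling method in which injected tumour cells tag the cells around them with biotin, and measured single-cell RNA from sorted biotin positive and biotin negative cells of mouse tissues. After intracardiac injection there were 32 samples, 4 positive and 4 negative ones from each of bone (femurs and tibias), brain, liver and lung. A second experiment held bone cells after an injection that the labels name only IIA, as 1 pooled matrix in which 12 hashtags marked a positive and a negative sample of each of 6 injections. All groups had received the same overnight labelling substrate, so the biotin negative cells come from labelled animals and are not from untreated ones. The strain, sex and age of the mice, the tumour line and the meaning of IIA are not stated in the labels. Nothing in the labels says that samples with different numbers came from separate animals, so the p-values below measure the spread between these samples.

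Arginine serves several ends in myeloid cells. Nitric oxide synthases turn it into citrulline and nitric oxide, while ornithine made from it can be decarboxylated to make polyamines, small cations that dividing cells need. Nos2 is known from macrophages and neutrophils activated by microbial products or interferon.

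Nos2 (ENSMUSG00000020826, chr11:78920787-78960254, plus strand of GRCm38, the assembly also called mm10) encodes inducible nitric oxide synthase. Slc7a2 (ENSMUSG00000031596, chr8:40862396-40922308, plus strand) encodes a cationic amino acid transporter that brings arginine into the cell. Ass1 (ENSMUSG00000076441, chr2:31470207-31520672, plus strand) encodes argininosuccinate synthase, which starts the rebuilding of arginine from citrulline. Odc1 (ENSMUSG00000011179, chr12:17544794-17551505, plus strand) encodes ornithine decarboxylase, the entry enzyme of polyamine synthesis. Sat1 (ENSMUSG00000025283, chrX:155213132-155216449, minus strand) encodes the acetyltransferase that marks spermidine and spermine for export or breakdown.

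After filtering, 55366 intracardiac cells (17157 positive, 38209 negative) and 22362 IIA cells (4889 positive, 17473 negative) were kept. Samples held 94 to 3505 intracardiac and 249 to 3480 IIA cells, with total UMIs of 482617 to 44834665 and 2149784 to 27903856. The smallest library, biotin positive liver 4, had 94 cells, which limits every value from it. Cells were clustered without these genes and named from marker lists, so each class name means cells that resemble the type. Of 31 intracardiac clusters 28 were named, and of 22 IIA clusters 19. Cluster 17 of the intracardiac cells (1679 cells, led by Pf4, Ppbp, Spp1, Ccl2 and Ccl7) stayed unnamed because macrophage and classical monocyte markers tied, and the IIA macrophage cluster had C1qb, C1qc, C1qa, Mrc1 and Pf4 among its leading genes. Intracardiac samples of different numbers shared 341 cell barcodes over 384 pairs of samples, and samples of the same number shared 0 over 112 pairs. Levels are counts scaled to a fixed total (CPM) of the summed counts of a sample, or of a class within it. In sums over all kept cells, fewer cells of a type and less RNA per cell cannot be told apart.

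The 5 genes were spread over different cell classes. Nos2 was most abundant in intracardiac mature neutrophils, which held 70.8% of its UMIs, with a median of 41.4 CPM (6.27 to 128). Immature neutrophils (6.22 CPM) and nonclassical monocytes (5.54 CPM) came next, and their ranges reached into that of mature neutrophils. The 70.8% pools all intracardiac groups. In positive bone mature neutrophils held 29.9% of Nos2 UMIs and unnamed clusters 43.3%, and in positive lung 52.2% and 39.3%. In each other group mature neutrophils held 60.3 to 85.2%. Within nonclassical monocytes, 51 of the 53 cells with a Nos2 UMI lay in cluster 2 (572 cells, 8.92%), whose leading genes included Ltf, a gene of neutrophil granules, and 2 in cluster 14 (1057 cells, 0.189%). The median depth was 10946 UMIs in cluster 2 and 2906 in cluster 14. Of the mature neutrophils of a sample, 11.3% had a Nos2 UMI in the median sample, at 3672 UMIs per cell, against 0.101% of all intracardiac B cells. In 3 lung samples, negative 4, positive 1 and positive 4, mature neutrophil cluster 22, led by Cxcl3, Ccl3 and Rsad2, had enough cells to measure and reached 152 to 183 CPM of Nos2. In IIA bone mature neutrophils held 5.62% of the 427 Nos2 UMIs, and the macrophage cluster held 86.2%. That experiment read 5′ rather than 3′ ends and covered bone alone. Its mature neutrophils had a median depth of 1429 to 2386.5 UMIs by sample, so these shares are not like for like.

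**Figure D1:**
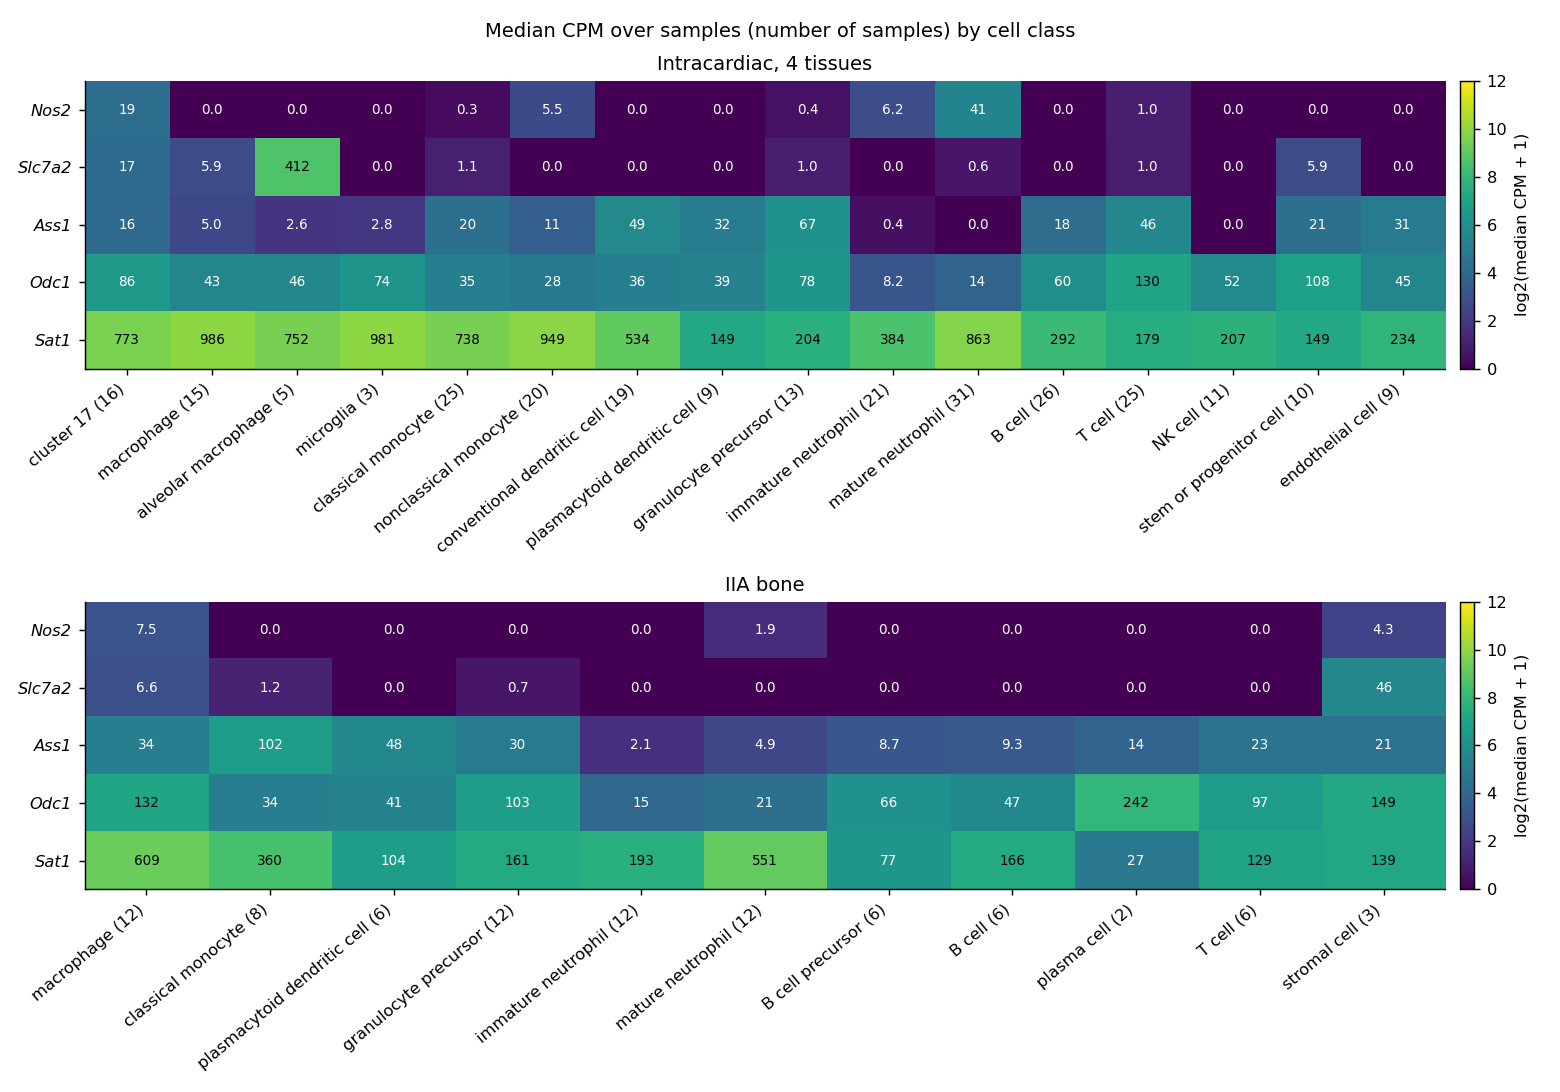
Median level of each of the 5 genes by cell class in the intracardiac and IIA experiments, as log2(CPM + 1) over samples with at least 20 cells of the class, shown as a colour scale, with the median CPM printed in each field and the number of samples beside each class. Nos2 stood out in intracardiac mature neutrophils and Slc7a2 in alveolar macrophages.

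Slc7a2 marked alveolar macrophages in the intracardiac samples. Alveolar macrophage clusters 24 and 25 held 88.6% of 17440 Slc7a2 UMIs, with 400 to 443 CPM in the 5 samples that had at least 20 such cells (median 412). The next named class, stem or progenitor cells, had a median of 5.89 CPM and at most 52.8, so the ranges did not overlap. In the median sample 86.4% of alveolar macrophages had a Slc7a2 UMI, and 43.7% did when each cell was thinned to 1500 UMIs, while the median B cell share was 0. In IIA bone, stromal cells (positive samples 2, 3 and 5) had 171, 45.9 and 25.0 CPM and macrophages a median of 6.58 CPM (0 to 44.7), with overlap between them.

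Ass1, Odc1 and Sat1 were broader, and neighbouring classes in the order of their levels overlapped. Ass1 was highest in intracardiac granulocyte precursors (median 67.1 CPM, 29.8 to 198), then in conventional dendritic cells (48.5), T cells (45.6), plasmacytoid dendritic cells (31.9) and endothelial cells (30.9). In IIA bone classical monocytes led with 102 CPM (59.4 to 193), before plasmacytoid dendritic cells (48.1), macrophages (33.6) and granulocyte precursors (30.5). Odc1 was highest in intracardiac T cells (median 130 CPM, 33.1 to 409), followed by stem or progenitor cells (108), granulocyte precursors (77.6), microglia (73.7) and B cells (60.4). The IIA order for Odc1 began with plasma cells (242 CPM in 2 samples), stromal cells (149) and macrophages (132). Sat1 was led by mononuclear phagocytes and mature neutrophils. Its intracardiac medians were 986 CPM in macrophages, 981 in microglia, 949 in nonclassical monocytes, 863 in mature neutrophils and 752 in alveolar macrophages. In IIA bone Sat1 was led by macrophages (609 CPM) and mature neutrophils (551 CPM), with classical monocytes at 360 CPM. In those monocytes the 6 negative samples had 248 to 484 CPM of Sat1, and the positive samples with enough cells, 5 and 6, had 162 and 120 CPM. The class with the highest CPM was also the class with the largest share of cells with a UMI, when cells were thinned to 1500 UMIs, in 7 of 10 cases. The exceptions were intracardiac Sat1, where microglia (77.5%) passed macrophages (71.4%), and IIA Sat1 (mature neutrophils 53.1%, macrophages 52.3%) and IIA Odc1 (stromal cells 18.5%, plasma cells 16.5%), where the shares of the leading classes lay close together. Thinned to 1000 UMIs, 9 of 10 cases had the same leading class, and the exception was IIA Sat1 (mature neutrophils 42.7%, macrophages 42.1%).

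The next question was which of the 5 genes differed between the biotin positive niche and the rest of a tissue. Counts were summed over all kept cells of a sample and tested with edgeR's quasi-likelihood test, with Benjamini-Hochberg adjustment over all genes of the fit and a threshold of 0.05. In lung 1 of 5 genes passed, Slc7a2, which was higher in positive samples, where 18.3% of 12331 genes passed (11.5% higher, 6.8% lower). In IIA bone 2 of 4 tested genes passed, Slc7a2 and Odc1, both higher in positive samples, where 50.2% of 12625 genes passed (27% higher, 23.2% lower). The IIA count of members called is therefore not above the background of that comparison. Slc7a2 reached this test mainly through the positive samples, at 0.930 to 34.8 CPM against 0.249 to 2.55 CPM in negative ones. Its place among the 4 tested genes thus depended on the group in which it was high, and the count gives no support of its own. In intracardiac bone 0 of 5, in brain 0 of 4 and in liver 0 of 5 passed, where 0%, 3.06% and 0% of all genes did. At an unadjusted p under 0.05 these counts were 1 (Odc1), 1 (Ass1) and 0, where 983 of 12533, 2327 of 11064 and 1571 of 11854 genes fell under it, and DESeq2 called 0 members in each of the 3 tissues.

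**Figure D2:**
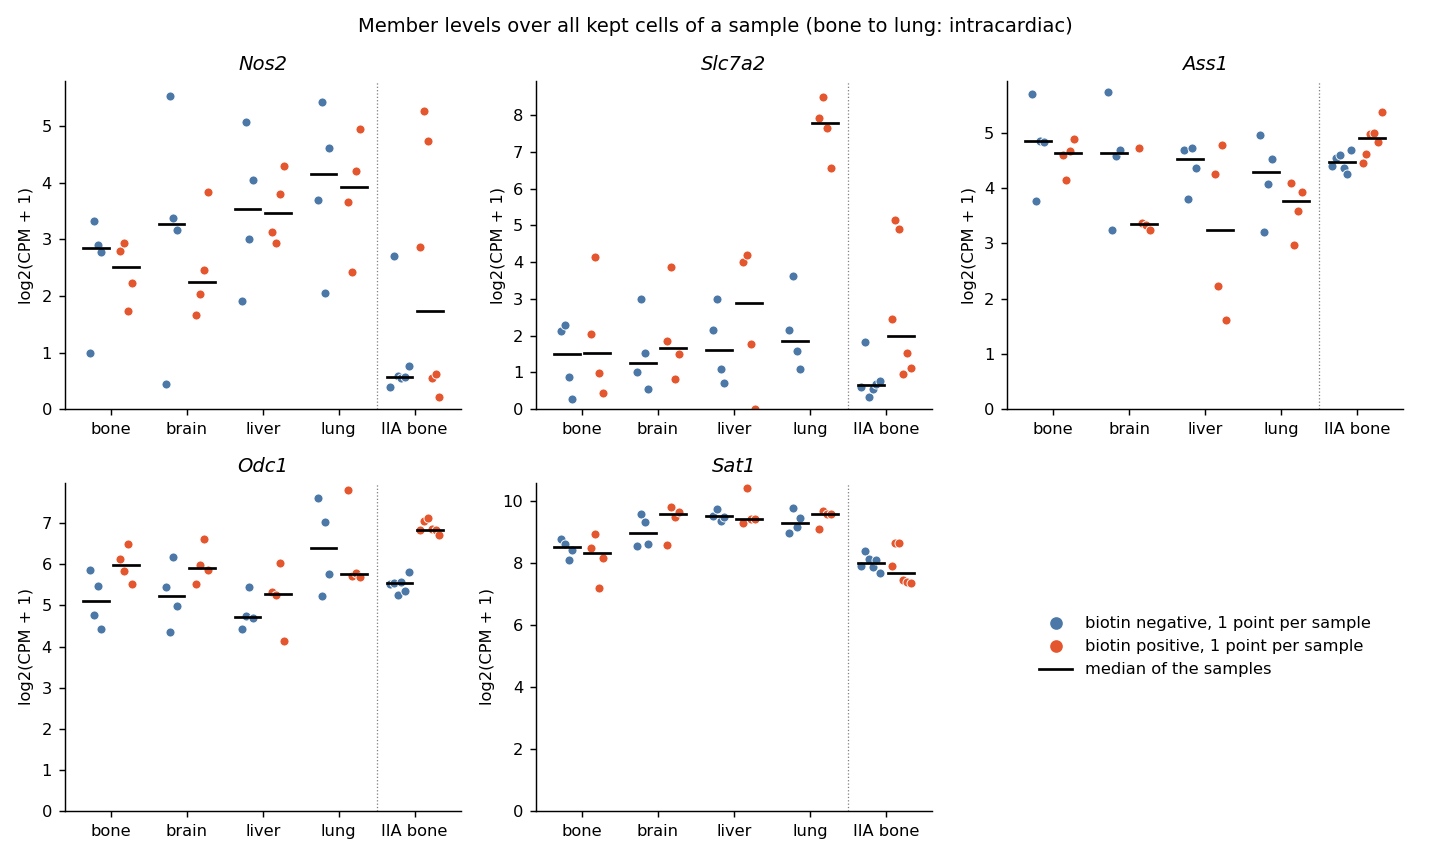
Level of each of the 5 genes over all kept cells in every sample, as log2(CPM + 1), with biotin negative samples in blue, biotin positive samples in orange and a bar at the group median. Groups of lung separated without overlap for Slc7a2, and groups of IIA bone for Odc1.

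Over all cells Nos2 gave no call between the sorts in any of the 4 intracardiac tissues, and it did not pass the filter on low counts in IIA bone. Lung values were 11.9, 42.1, 3.13 and 23.7 CPM in negative and 11.6, 4.37, 17.5 and 29.96 CPM in positive samples (log2 difference -0.70, SE 0.82, edgeR adjusted p = 0.564). With a sample left out it ran from -1.17 to 0.05, the latter without negative sample 2. Brain had 0.354, 45.3, 9.46 and 8.02 CPM in negative against 2.17, 3.11, 4.52 and 13.2 CPM in positive samples. Levels within a group were spread so widely that a moderate difference would not be detectable here. In IIA bone Nos2 was 0.309, 5.54, 0.498, 0.474, 0.484 and 0.707 CPM in negative and 6.25, 37.5, 25.8, 0.465, 0.538 and 0.168 CPM in positive samples, with positive samples 1 to 3 above every negative one, positive samples 4 and 5 among them and positive sample 6 below all of them. The macrophage cluster, which held most IIA Nos2 UMIs, made up 16.3, 52.6, 39.0, 8.03, 5.51 and 5.18% of the cells of positive samples 1 to 6 and 1.14 to 4.46% of negative ones, and the summed macrophage marker list ran from 796 to 10825 CPM in positive and from 246 to 566 CPM in negative samples. The part of these shares in the Nos2 levels was not tested.

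Nos2 was also detected outside neutrophils. In cluster 17, 155 of 1679 cells (9.23%) had a Nos2 UMI, at a median depth of 9297 UMIs, and of 1262 IIA macrophages 96 (7.61%) had one. These lay mainly in a few samples, with 7.25, 13.7 and 10.8% of the macrophages of positive samples 1, 2 and 3 and 8.33% of those of negative sample 2, against 3.39% or less in each other sample. Nos2 UMIs were also found in small clusters, namely T cell cluster 23 (20 of 125 cells, 16%), which had 4 mature neutrophil markers among its top 100 genes, alveolar macrophage cluster 24 (11 of 120, 9.17%) and the IIA stromal cells (9 of 195, 4.62%). In intracardiac B cells, which should lack the gene, the share of 0.101% was measured at a median of 2198 UMIs. Within cluster 17 Nos2 was at 33.0, 4.46, 16.2 and 44.3 CPM in positive and 36.1, 22.5, 35.9 and 101 CPM in negative lung samples, which overlapped. The part of free RNA and doublets in these counts was not tested.

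Slc7a2 gave the largest difference of the 5 genes in lung. It was 3.46, 11.2, 1.98 and 1.12 CPM in negative samples and 240, 362, 199 and 93.5 CPM in positive samples 1 to 4. The groups lay far apart, and 17.7% of all genes were likewise higher without overlap. The log2 difference was 5.27 (SE 0.80, edgeR adjusted p = 0.00407), called without each of the 8 samples in turn (4.97 to 6.48). The difference in lung exceeded the mean difference of the other 3 tissues by 4.27 on the log2 scale (SE 1.17, edgeR adjusted p = 0.0473, where 2.54% of 13963 genes passed, 1.93% higher and 0.616% lower). With the sample number as a block this contrast was 5.03 (adjusted p = 1.56e-06), and without the filter on low counts it was 4.27 and not called (adjusted p = 0.0582). No such contrast was called for another member or for another tissue, where 0, 0.301 and 0% of genes passed for bone, brain and liver.

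The alveolar macrophage clusters accounted for most of the Slc7a2 UMIs in positive lung, 93.5%. They made up 45.2, 81.7, 37.6 and 14.7% of cells in positive samples 1 to 4 (1389, 1939, 458 and 100 cells) but numbered 6, 22, 2 and 1 cells in negative samples 1 to 4. Within them Slc7a2 was at 412, 443, 443 and 400 CPM in positive samples; the negative values of 136, 410, 518 and 175 CPM rested on 10, 84, 1 and 1 UMIs. Outside the clusters positive samples still had 63.1, 44.1, 8.63 and 15.6 CPM against 2.61, 4.15, 1.88 and 1.06 CPM in negative samples, without overlap. In cluster 17, whose cells made up 15.5, 9.52, 3.04 and 10.8% of positive lung samples 1 to 4 and 1.34, 1.67, 1.26 and 2.99% of negative ones, Slc7a2 was 128, 50.7, 74.5 and 45.3 CPM in positive and 27.1, 14.1, 15.4 and 16.2 CPM in negative lung, the latter from 9, 5, 3 and 12 UMIs. These groups too did not overlap; the difference was not tested, and the part of free RNA from alveolar macrophages in it was not tested. The summed alveolar macrophage list (15 of 15 genes detected) was 7060 to 29128 CPM in positive and 1913 to 3730 CPM in negative lung.

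**Figure D3:**
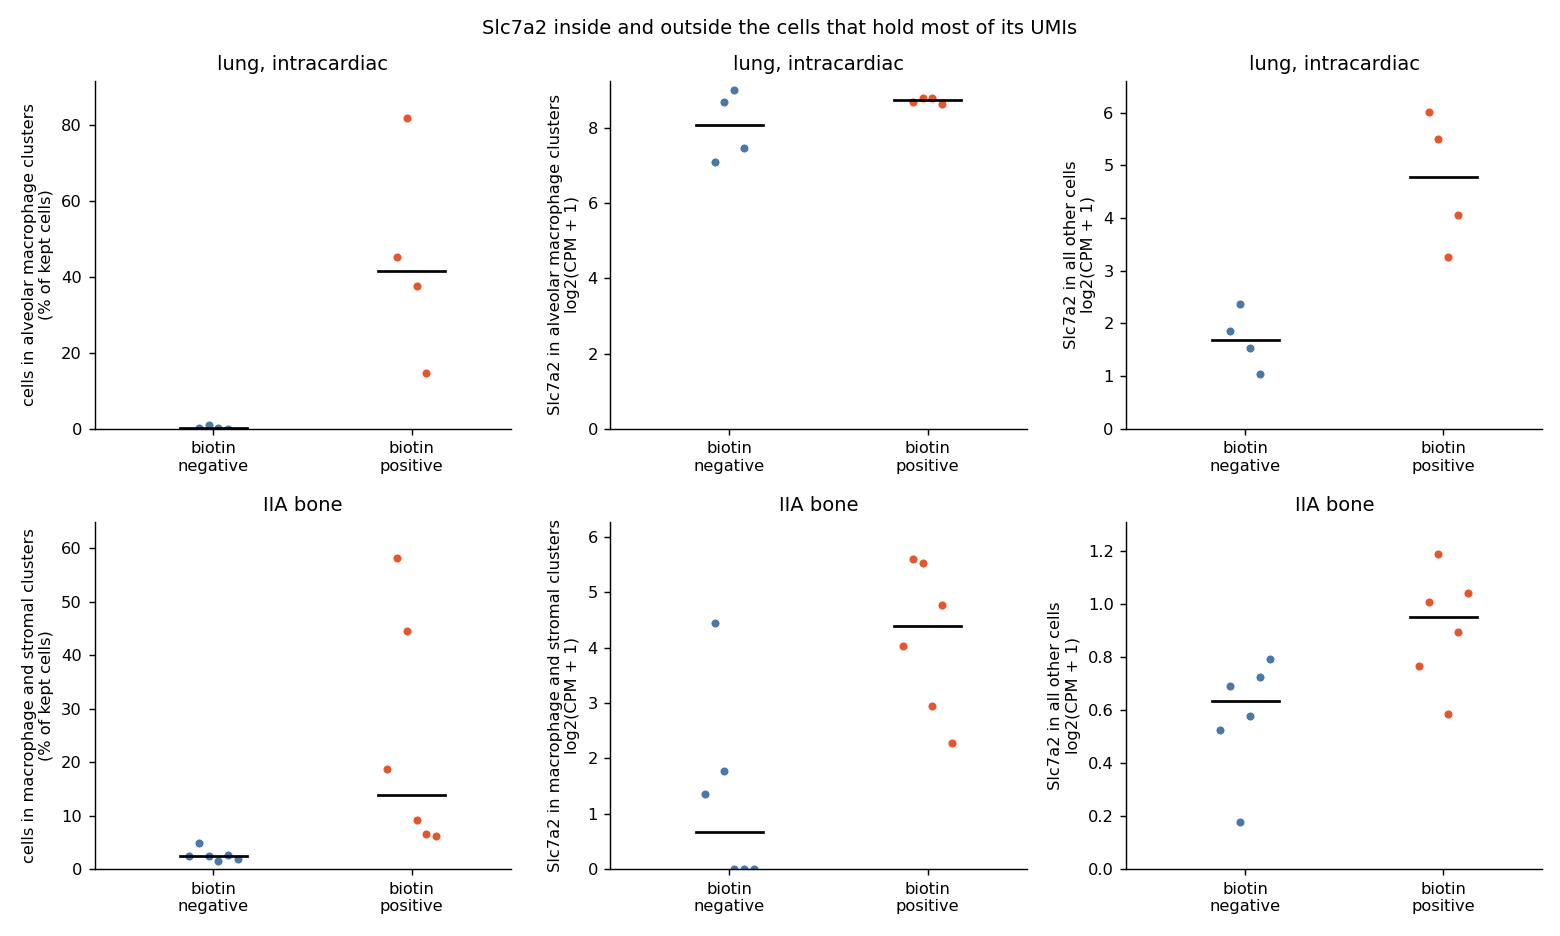
Left, share of kept cells in the cells holding most Slc7a2 UMIs (alveolar macrophage clusters in lung, macrophage and stromal clusters in IIA bone); middle, Slc7a2 level in those cells; right, Slc7a2 level in all other cells, levels as log2(CPM + 1), 1 point per sample and a bar at the median. In lung the positive samples were higher in the share and outside the clusters without overlap, and the negative values inside the clusters rest on 1 to 22 cells.

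In IIA bone Slc7a2 was 0.515, 2.55, 0.249, 0.474, 0.623 and 0.707 CPM in negative and 4.43, 34.8, 29.2, 0.930, 1.90 and 1.18 CPM in positive samples. Positive samples 4, 5 and 6 lay below negative sample 2, and each positive sample was above the negative one of its number. The log2 difference was 3.61 (SE 0.98, edgeR adjusted p = 0.00859). It was 2.69 with the injection as a block (adjusted p = 0.0171). It was called without any of 10 of the 12 samples in turn (2.95 to 3.85), and without negative sample 2 or positive sample 5, or with stricter cell filters, Slc7a2 did not pass the filter on low counts. The macrophage and stromal clusters together held 90.9% of Slc7a2 UMIs in positive samples (14.3 to 99.2% by sample) and 35.1% in negative ones, where 18 of 20 such UMIs came from negative sample 2, and outside both the ranges overlapped, at 0.500 to 1.28 and 0.131 to 0.731 CPM. In bone, liver and brain of the intracardiac experiment the levels were 0 to 17.2 CPM with no call. The log2 difference was 1.14 in bone, where it turned to -0.54 without positive sample 2, and 1.40 in liver; brain did not pass the filter. The 0 in positive liver 4 allows up to 6.22 CPM.

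Ass1, which rebuilds arginine from citrulline, was not called over all cells in any tissue. In lung it was 29.99, 8.24, 15.7 and 22.0 CPM in negative and 16.04, 6.81, 11.02 and 14.3 CPM in positive samples. The groups overlapped, but within each number the positive sample was lower, and the log2 difference of -0.88 (SE 0.39, edgeR adjusted p = 0.144) became -0.84 and was called with the number as a block (adjusted p = 0.0227). In brain the difference was -1.26 (SE 0.55, edgeR adjusted p = 0.231), from 52.0, 8.43, 22.9 and 24.9 CPM in negative to 25.4, 9.34, 9.03 and 8.45 CPM in positive samples.

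Within IIA macrophages Ass1 fell. It was 67.0, 56.0, 69.7, 32.7, 47.2 and 97.6 CPM in negative and 28.4, 20.7, 34.5, 0, 21.0 and 13.6 CPM in positive samples. These values rested on 21, 30, 15, 5, 22 and 27 UMIs in negative and 20, 44, 102, 0, 13 and 2 UMIs in positive samples. The only overlap was positive sample 3 above negative sample 4, and the 0 of positive sample 4 allows up to 27.1 CPM. On the log2 scale the change was -1.32 (SE 0.31, edgeR adjusted p = 0.00636, where 23.8% of 5552 genes passed, 12.3% lower and 11.5% higher), and it was called without each of the 12 samples in turn (-1.56 to -1.19). In each of the 6 injections the positive sample was below the negative sample of its number. In IIA classical monocytes the order was the opposite, with 128 and 193 CPM of Ass1 in positive samples 5 and 6 (41 and 21 cells) above the 59.4 to 112 CPM of all 6 negative samples. This class was not tested, since it had fewer than the 3 positive samples set as the minimum for a fit. Over all IIA cells Ass1 was 18.1 to 24.6 CPM in negative and 20.8 to 40.5 CPM in positive samples, with no call (log2 difference 0.21, SE 0.15, edgeR adjusted p = 0.285).

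**Figure D4:**
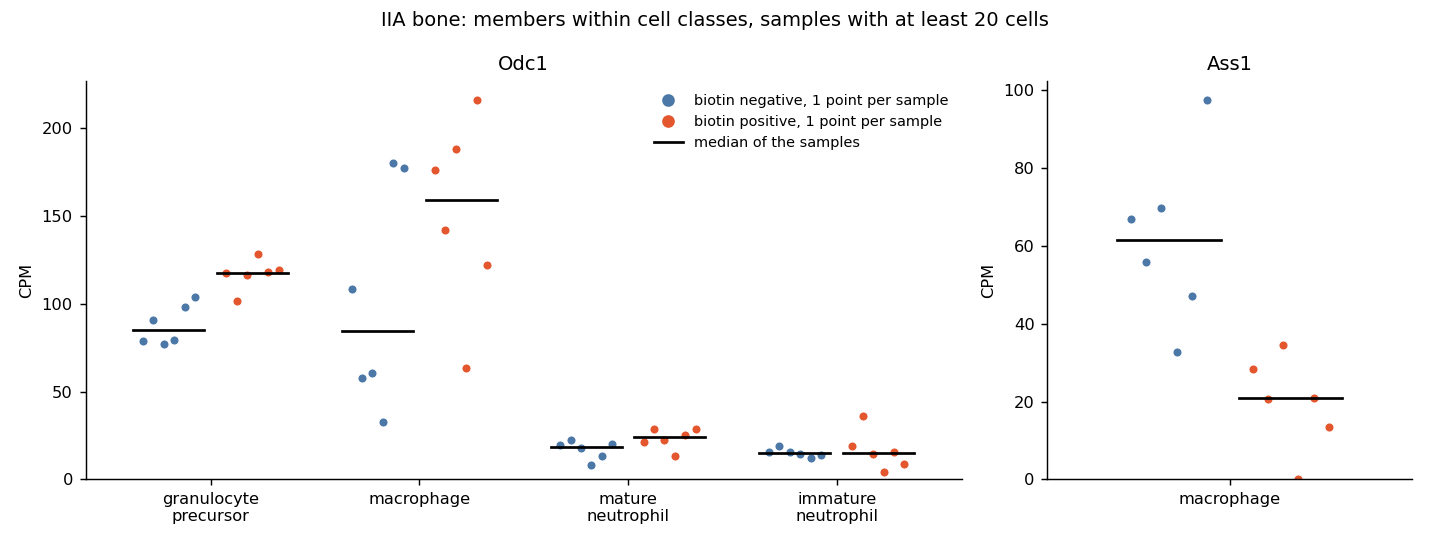
Levels in CPM of Odc1 in 4 IIA bone classes (left) and of Ass1 in macrophages (right), 1 point for each sample with at least 20 cells, negative in blue, positive in orange, with a bar at the median. In macrophages the positive samples lie low for Ass1, at 0 to 34.5 CPM, and in granulocyte precursors 5 of the 6 positive samples lie above all negative ones for Odc1.

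Odc1, the entry enzyme of polyamine synthesis, separated the IIA sorts completely. It was 45.0, 46.0, 37.2, 46.7, 39.7 and 55.2 CPM in negative and 113, 131, 139, 115, 113 and 105 CPM in positive samples, so the lowest positive sample was well above the highest negative one. Positive samples exceeded negative ones by 1.17 on the log2 scale (SE 0.11, edgeR adjusted p = 6.63e-06), called without each sample in turn at 1.12 to 1.24, and 22% of all genes were likewise higher without overlap. Granulocyte precursors, dividing cells with an Odc1 level of 77.1 to 128 CPM, held 48.4, 6.88, 8.89, 50.2, 80.9 and 62.1% of the Odc1 UMIs of positive samples 1 to 6 and 5.78 to 16.2% of those of negative samples. Positive sample 5 supplied 2541 of the 3373 precursor UMIs of the positive samples. Precursors were 4.12 to 52.9% of positive and 1.04 to 3.39% of negative cells.

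The Odc1 separation was also present outside these cells, at 87.3 to 142 CPM in positive and 35.0 to 51.4 CPM in negative samples, and outside macrophages, at 97.7 to 118 against 35.0 to 53.2 CPM. Both comparisons kept immature neutrophils, with at most 18.9 CPM of Odc1 in negative and 35.99 CPM in positive samples. Their smallest negative share was 860 of 2693 cells (sample 2), above the largest positive share, 150 of 637 (sample 6). Within them the log2 difference of Odc1 was -0.20 (edgeR adjusted p = 0.721). The part of this makeup in the separation was not tested. Within precursors the ranges were 102 to 128 CPM in positive and 77.1 to 104 CPM in negative samples, with positive sample 2 below negative sample 6, and in each of the 6 injections the positive sample was above the negative one of its number. This difference was not tested. The precursor class pooled clusters 7, 12 and 16. Where it had at least 20 cells, cluster 7 was 30 of 57, 27 of 42, 39 of 74 and 54 of 112 precursors in negative samples 1, 3, 5 and 6. It was 88 of 113, 29 of 59, 42 of 58, 880 of 1131 and 148 of 193 in positive samples 1, 3, 4, 5 and 6. The part of this makeup in the precursor levels was not tested. In macrophages Odc1 was 176, 142, 188, 63.2, 216 and 122 CPM in positive and 108, 57.9, 60.4, 32.7, 180 and 177 CPM in negative samples, with overlap. Mature neutrophils gave a log2 difference of 0.52 (edgeR adjusted p = 0.157), but the makeup of that class differed between the sorts. Cluster 6 held 78.1 to 97.9% of it in negative samples and 52.7, 19.8, 15.9, 84.2, 38 and 52.3% in positive samples 1 to 6, and cluster 5, led by Acod1, Hcar2, G0s2, Cxcl2 and Il1b, held the rest. The part of that makeup in the difference was not tested. Odc1 was not called in any class fitted between the sorts; granulocyte precursors were not among the classes fitted.

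In the intracardiac tissues Odc1 was not called. Bone had the largest difference of the 4, with 57.5, 26.1, 43.4 and 20.7 CPM in negative and 69.3, 56.6, 89.1 and 44.6 CPM in positive samples; each positive sample was above the negative one of its number, the groups overlapped, and the log2 difference was 0.70 (SE 0.26, edgeR adjusted p = 0.615). Lung had 196, 36.9, 130 and 53.6 CPM in negative and 223, 51.7, 54.8 and 50.4 CPM in positive samples, a log2 difference of -0.34 (-1.13 to 0.17 with a sample left out). Brain and liver gave 0.40 and 0.29.

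Sat1, on the breakdown side of the polyamine pathway, was not called between the sorts in any tissue, and the groups overlapped in each. Its log2 differences were -0.36 in bone, 0.04 in brain, -0.04 in liver, -0.14 in lung and -0.26 in IIA bone, with SEs of 0.26 to 0.33, and those of brain, liver and lung took either sign with a sample left out. Lung samples ran from 503 to 867 CPM in negative and from 543 to 816 CPM in positive ones. Within IIA immature neutrophils the difference was -0.24 (edgeR adjusted p = 0.0938), and without positive sample 2 it was -0.29 and called (0.0271). Cluster 2 was 35.0% of this class in negative and 47.5% in positive samples, and the part of that makeup in the Sat1 difference was not tested.

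Between the sorts no member was called within a class other than Ass1 in IIA macrophages. Such tests were possible for 47 combinations of a member with a class and tissue, while 43 did not pass the filter. In the 15 fits between the sorts within intracardiac classes 0% of all genes passed.

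The same genes were then compared between tissues within a sort. Among biotin negative samples Odc1 differed between the 4 tissues (edgeR adjusted p = 0.0320, where 11.8% of 13096 genes passed). The fitted tissues spanned 1.89 on the log2 scale, with 36.9 to 196 CPM in lung and 19.4 to 72.1 CPM over the other tissues, which overlapped it. The call was lost without any of the 4 numbers (0.0552 to 0.223). With the number as a block Ass1 (adjusted p = 0.0377) and Sat1 (0.0201) passed too, and 3906 genes in all, against 1544 without it. Among biotin positive samples Slc7a2 (range 5.52, edgeR adjusted p = 0.00146) differed between tissues, where 30.3% of 12843 genes passed. For Slc7a2 lung lay above every sample of the other tissues. It was called without each number, and with the block, which called 4743 genes in all against 3890, Sat1 passed as well (0.0438).

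Within 1 class the tissue difference of Odc1 was found in classical monocytes, which carried 54.8, 24.4, 35.8 and 26.8 CPM in negative bone, 23.4, 20.5, 22.9 and 37.5 CPM in brain, 13.4, 17.6, 23.3 and 34.8 CPM in liver and 180, 60.5, 84.3 and 36.1 CPM in lung. The lung samples were the highest except for number 4 (range 2.26 on the log2 scale, edgeR adjusted p = 0.00854, where 4.19% of 9527 genes passed). Sat1 in the same cells was 516 to 651 CPM in bone, 626 to 838 in brain, 871 to 1011 in liver and 693 to 848 in lung, and bone and liver did not overlap (range 0.80, edgeR adjusted p = 0.00578). Cluster 15, led by Saa3, Vcan and Thbs1, made up 95.4% of the class in lung, 26.9% in bone, 52.1% in brain and 36.5% in liver, and cluster 3 most of the rest. Within cluster 15 alone Odc1 was 186, 39.2, 59.4 and 46.2 CPM in bone, 17.4, 23.0 and 37.3 CPM in brain samples 2 to 4, 44.8, 17.7, 22.7 and 36.5 CPM in liver and 185, 62.2, 84.9 and 35.1 CPM in lung, so lung overlapped each other tissue there. Sat1 within cluster 15 was 571 to 692 CPM in bone and 777 to 948 CPM in liver, still without overlap. With the number as a block Ass1 (adjusted p = 0.00714) passed in this class too, and the number of all genes called rose from 399 to 1267. In the other classes compared between tissues 0 members passed with edgeR, where 4.57% of genes did in macrophages, 2.7% in nonclassical monocytes, 0.495% in immature neutrophils, 4.49% in mature neutrophils, 0% in B cells and 0.198% in T cells. The macrophage fit compared brain with liver, with 3 samples each, and the class merged macrophages with alveolar macrophages and microglia in this fit and in those between the sorts. Over the negative samples it was 85.9% cluster 27 and 12.3% microglia cluster 30 in brain, and 47.6% cluster 26 and 41.5% cluster 27 in liver. The block added Odc1 and Sat1 in mature neutrophils (adjusted p = 0.00483 and 0.0197), Sat1 in nonclassical monocytes (0.0188), and Odc1 in B cells (0.00288) and T cells (0.0338). The same block raised the number of all genes called from 328 to 1233 in mature neutrophils, from 163 to 515 in nonclassical monocytes, from 0 to 133 in B cells and from 14 to 182 in T cells. In negative samples the mature neutrophils were 83.1% cluster 8 in bone, 61.0% cluster 10 in brain, and 57.0 and 63.3% cluster 9 in liver and lung, and the part of that makeup in these calls was not tested.

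The wider pathway was read from a list of 48 other genes of arginine transport, nitric oxide synthesis, the urea cycle, polyamines, hypusine, proline and creatine. In bone 0 of 36 tested genes, in brain 0 of 32 and in liver 0 of 33 passed. In lung 4 of 33 rose and 0 fell, a share near the 11.5% of all genes that were higher, with a median log2 difference over the list of 0.01 against -0.04 over all genes. These were the creatine transporter Slc6a8 (3.28), the biopterin recycling enzyme Qdpr (2.14), the polyamine transporter Atp13a3 (1.05) and Slc7a7 (0.83), which exchanges arginine across the membrane. In IIA bone 20 of 36 rose and 1 fell, where 27% of all genes were higher and 23.2% lower, with a median of 0.66 against 0.08 over all genes. By smallest p the first were spermine synthase Sms (0.78, edgeR adjusted p = 4.53e-05), Qdpr (1.09, 8.36e-05), the hypusine enzyme Dohh (0.99, 0.000135) and ornithine aminotransferase Oat (0.67, 0.000214), and the gene that fell was the antizyme Oaz2 (-0.41), an inhibitor of ornithine decarboxylase.

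Within IIA macrophages 4 of 18 tested pathway genes rose, Qdpr (1.43), Slc7a7 (1.38), spermidine synthase Srm (1.15) and the polyamine transporter Atp13a2 (1.14), and 2 fell, spermine oxidase Smox (-1.10) and Gch1 (-0.83), which makes the cofactor of nitric oxide synthases, where 11.5% of all genes were higher and 12.3% lower. In IIA mature neutrophils 3 of 13 rose, Smox (1.56), Slc3a2 (1.09) and Gch1 (0.90), where 15.1% of all genes passed in either direction. These neutrophil values come from the class whose share in cluster 6 was 15.9 to 84.2% in positive and 78.1 to 97.9% in negative samples, and the part of that makeup in them was not tested. In IIA immature neutrophils 1 of 25 rose, the creatine synthesis gene Gatm (0.59), where 7.74% of all genes passed in either direction. Cluster 2 was 35.0% of this class in negative and 47.5% in positive samples, and cluster 4 was 39.8 and 29.9%. The part of that makeup in the Gatm difference was not tested.

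Across 242 sums of 1 intracardiac sample and 1 named class, which share libraries and depth, the genes whose log2(CPM + 1) was most like each member's differed from member to member. Nos2 was closest to Il1f9 (Pearson r = 0.80), 4732465J04Rik (0.79) and Steap4 (0.79). Slc7a2 was closest to Krt19 (0.71) and to the alveolar macrophage markers Plet1 (0.70) and Cidec (0.67), and Sat1 to Tlr13 (0.85), Slc11a1 (0.84) and Pla2g7 (0.83). Ass1 was closest to Tubb5, Rps2 and Rpl28 (0.72 each), and Odc1 to Btg3 (0.71), Ncl (0.69) and Eprs (0.69). Among the members themselves Ass1 and Odc1 were most alike (0.48), then Nos2 and Sat1 (0.45), while Nos2 and Ass1 had r = -0.50.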

How the data were processed

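Single-cell RNA of 32 intracardiac samples and 1 pooled IIA bone matrix was analysed. Values are UMI counts for each gene in each barcode, as deposited by the authors, written by cellranger 6.1.2 (intracardiac, CellPlex, 3′ ends) and 7.1.0 (IIA, TotalSeqC, 5′ ends), per the file headers and the labels' protocols. The genome build was mm10, and Cell Ranger and Seurat were used, per the submitters' processing notes; the Seurat output is not used here. The members and lists were chosen with earlier results of these data known, and 2 genes of the list of 7 are not reported here.

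Barcodes under 500 UMIs, under 200 genes or over 15% mitochondrial UMIs were dropped. IIA cells went to the hashtag with at least 10 counts and 3 times the next one, and hashtags were matched to the labels' sample list by number. Cells were clustered with scanpy 1.11.5 (2000 variable genes without the listed genes, 30 components, 15 neighbours, Leiden resolution 1) and named from marker lists. No doublets were removed; leaving out the 5% with the highest doublet scores was an alternative for the intracardiac samples and was not run for IIA bone. Counts were summed per sample, or per sample and class with at least 20 cells (3 samples or more per sort), and tested with edgeR 4.0.16 (filterByExpr, TMM, quasi-likelihood, Benjamini-Hochberg, 0.05). The edgeR test was tried on simulated counts of independent samples, with the same spread set for every gene. That trial did not cover genes whose levels varied more between samples, or likeness of samples of the same number. Intervals were not computed from cells; floors for a count of 0 are 3 counts and cover counting error only.

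Alternatives were DESeq2 1.42.0, no filter on low counts, a replicate block, stricter cell filters (1000 UMIs, 10% mitochondrial), other class minimums and hashtag ratios, thinning to 1000 in place of 1500 UMIs, and leaving out each sample. Genes named are the 5 members, up to 4 pathway genes per comparison by smallest p, those behind counts of 5 or fewer, and the 3 genes most like each member. Numbers were taken to pair samples, since they follow the word injection in the names. Same-numbered positive and negative samples deviated together with r above 0.1 in 15 of 16 intracardiac pairs (median 0.463) and 5 of 6 IIA pairs (median 0.321). The sample of the same number was the best match in 14 of 16 intracardiac pairs but in only 3 of 6 IIA pairs. Pairing by number is therefore less sure in IIA bone.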

Additional observations from a re-analysis of the deposited data

Results flagged for a closer look

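In 6 of 50 groups of 4 or 6 samples, the highest sample of a member lay far from the others by Dixon's test. For normally distributed values chance does this in about 1 in 20 groups. The test was made on CPM rather than on the log scale and all flags were at the high end, so that rate may not hold here. Negative IIA sample 2 stood apart for Nos2, at 5.54 CPM (next 0.707), and for Slc7a2, at 2.55 CPM (next 0.707). It also had the largest macrophage share of the negative IIA samples, 4.46%; the part of this share in these values was not tested. Slc7a2 in positive brain 2 was 13.7 CPM (next 2.60), Ass1 in positive brain 1 was 25.4 CPM (next 9.34), Odc1 in positive lung 1 was 223 CPM (next 54.8) and Sat1 in positive liver 2 was 1380 CPM (next 690).

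The sort difference of Slc7a2 in lung differed from that of the other tissues, by 4.27 on the log2 scale in the test of the difference itself (edgeR adjusted p = 0.0473).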

How the results depend on the processing

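No value changed sign among called results. Of 420 member differences under other settings 398 kept their side of the threshold and size, as did 503 of 564 with a sample left out; the causes of the changes below were not tested, except where a gene no longer passed the filter on low counts. The number of members called depended on the setting as follows. In IIA bone over all cells (2) it was 1 with stricter cell filters and 1 to 2 with a sample left out, and in IIA immature neutrophils (0) it was 0 to 1 with a sample left out. For tissues compared without the filter it was 1 in macrophages, nonclassical monocytes, mature neutrophils, B cells and T cells (0 each), while the lung contrast with the other tissues went from 1 to 0. DESeq2, chosen after seeing the data for tissues within a class, called 1 member in nonclassical monocytes and 1 in B cells (0 each), and it called 2 between tissues in positive samples (1). In negative samples (1) the count between tissues was 0 without any of the 4 numbers.

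With the replicate block, pairing samples by number, the count was 2 in lung (1), and between tissues 3 in negative samples (1), 2 in positive samples (1), 2 in mature neutrophils (0) and 1 in nonclassical monocytes, B cells and T cells (0 each). Beside the values given with the results, the block changed no other member's call.

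Counts over all genes moved more. Bone (0) had 53 genes with DESeq2 and 12 with the block, brain (339) 1225 and 762, 517 without the filter and 3 to 758 with a sample left out, and liver (0) 431 with DESeq2 and 0 to 61. Lung (2254) had 1280 to 2381 with a sample left out, negative tissues (1544) 3002 with DESeq2, 3906 with the block and 1 to 1649, and positive tissues (3890) 488 to 3832. With the block the contrast of a tissue with the others called 857 genes for lung (355), 142 for brain (42), 13 for bone (0) and 1 for liver (0). IIA macrophages (1323) had 849 without positive sample 3, immature neutrophils (626) 310 without positive sample 5, and mature neutrophils (840) 412 and 508 without positive sample 3 or 5. Not run were doublet removal in IIA bone and, for lack of samples with enough cells, stricter filters or doublet removal in 4 intracardiac class fits. Stricter cell filters and doublet removal were also not run for comparisons between tissues. The contrast of a tissue with the others was rerun only without the filter on low counts and with the block. No sample was left out for that contrast or for tissues compared within a class. Depth limits Slc7a2 in negative lung and Nos2 outside its main cells, where few UMIs were counted.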
